A study of Rattus norvegicus with 6 samples.

Results

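The genes described here are the rat chaperones of the HSP70, HSP40 (DNAJ) and HSP90 families and the BAG exchange factors, together with the mitochondrial chaperonin pair Hspd1 and Hspe1, the cochaperones Chordc1, Ahsa1, Stip1 and Cdc37, and the heat shock factors Hsf1 and Hsf2. They were picked by gene symbol, and 73 of the 22396 genes in the deposited count table matched. By family these were 13 HSP70 genes (Hsph1 counted among them), 43 HSP40 genes, 3 HSP90 genes, 6 BAG genes, 4 cochaperones, 2 chaperonin genes and 2 heat shock factors. By place and known regulation they were split into 12 heat-inducible cytosolic genes, 29 constitutive genes grouped as cytosolic, 14 of the endoplasmic reticulum (ER), 10 mitochondrial genes, 4 of vesicles, the 2 heat shock factors and 2 genes left unplaced. The constitutive cytosolic group is broad and includes Dnajb13, known from cilia and sperm tails. Of the 73, 71 passed the expression filter and were tested. The other 2, Dnajb7 and Dnajc5b, had at most 20 counts in any rat.

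The comparison was between adult male Sprague-Dawley rats with subarachnoid hemorrhage (SAH, bleeding into the fluid space around the brain) given 6-gingerol, a phenolic compound of ginger, at 10 mg/kg (SAH + 6-gingerol, n = 3) and SAH rats given the saline vehicle (SAH + PBS, n = 3). In every rat, blood drawn from the femoral artery had been put into the cisterna magna, and drug or vehicle was given into the abdomen 1 h later. RNA came from the basal temporal lobe, with 1 library per rat. Per the study's methods the RNA was sequenced at 24 h post-SAH. Sham rats are not among the libraries, and both groups therefore carry the hemorrhage. Brain tissue holds many cell types, and fewer cells of a type cannot be told apart from less RNA per cell. The question was which transcripts differ when SAH rats receive 6-gingerol.

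Total counts were 62762808 to 66761380 in the SAH + 6-gingerol rats and 64053899 to 65606360 in the SAH + PBS rats, so depth was similar. Of the 6 libraries SAH + PBS replicate 2 was the least like its group, since 15.2% of its genes deviated over 2-fold from the group, against 1.55% to 6.73% elsewhere. Among markers of brain cells, the summed level of 10 neuronal genes was 10224 to 10643 CPM (counts scaled to a common library size) with 6-gingerol and 4145 to 8103 CPM with PBS, lowest in SAH + PBS replicate 2. The 9 astrocyte markers summed to 4129 to 4630 CPM with 6-gingerol and 5394 to 6755 CPM with PBS, highest in SAH + PBS replicate 2. That sum does not stand for the whole list. Of the 9 markers, 7 had positive log2 fold changes (6-gingerol over PBS) and 2 negative, with a median of 0.29. The 9 of 10 markers of choroid plexus and ependyma found summed to 19.4 to 27.1 CPM against 1131, 11.6 and 350 CPM in SAH + PBS replicates 1, 2 and 3, and 6 of 8 markers of blood-borne and border macrophages to 26.1 to 33.1 CPM against 37.4 to 196 CPM. The 6 neutrophil markers summed to 3.75 to 4.81 CPM with 6-gingerol against 5.34, 45.4 and 9.01 CPM in SAH + PBS replicates 1, 2 and 3, and 6 of 7 endothelial markers to 205 to 220 CPM against 189, 360 and 209 CPM, so that both were highest in SAH + PBS replicate 2. The 7 oligodendrocyte markers summed to 3564 to 6830 CPM against 5132, 2587 and 3347 CPM, and 5 of 6 red cell markers to 606 to 963 CPM against 328, 1385 and 507 CPM. The 7 of 8 microglial markers found were level, at 313 to 323 CPM against 309 to 331 CPM. No marker found in the table was at 0 in all rats, and the part of these cell markers in the results below was not tested.

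HSP70 proteins bind unfolded stretches of other proteins in a cycle driven by ATP. HSP40 (J-domain) proteins deliver the client and start ATP hydrolysis, and BAG proteins and HSP110 proteins such as Hsph1 release the nucleotide so that the cycle can begin again. Stip1 hands clients over to HSP90, where Ahsa1 stimulates the ATPase and Cdc37 brings kinases. Under proteotoxic stress the factor HSF1 switches on the inducible cytosolic set, whereas the ER chaperones answer to the unfolded protein response, and the constitutive members serve housekeeping folding. In injured brain, HSP70 is widely used as a marker of cells under protein stress.

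Most chaperone transcripts had lower values in the SAH + 6-gingerol rats than in the SAH + PBS rats, and the widest gaps on the log2 scale were those of the inducible Hspa1a and Bag3, followed by Dnajc22, Hsph1 and Hspe1. The log2 fold change (6-gingerol over PBS) was negative in 48 of the 71 tested members and positive in 23, with a median of -0.24, where 53.1% of all 17096 genes tested were negative and their median was -0.03. Without SAH + PBS replicate 2 the median of the members shrank to -0.07 (all genes -0.01), with 47 of 73 tested members negative. No member passed the correction over all genes. At an adjusted p under 0.05 in edgeR 0 members were called in either direction, against a background of 0.0117% of genes called lower and 0.00585% called higher, and members had adjusted p from 0.334 to 0.991. At an unadjusted p under 0.05, 17 members were lower (8.71% of all genes) and 1 was higher, the mitochondrial Dnajc30 (5.22% of all genes). Adding a change of over 2-fold gives the p and fold limits stated in the study, whose methods also name an adjusted p limit, not used here. At the p and fold limits 7 members were lower (4.69% of all genes). At these limits 0 were higher (0.731% of all genes), and the calls are edgeR's rather than the study's own. The 7 lower members were Hspa1a, Bag3, Hsph1, Hspe1, Hspd1, Dnajc25 and Dnajc22. The groups did not overlap in 23 members that were lower with 6-gingerol (13.4% of all genes) and in 7 that were higher (13.8% of all genes). DESeq2, the tool named in the study's methods, called 11 members lower and 0 higher at an adjusted p under 0.05. Of the 17034 genes it gave an adjusted p, 508 were called lower and 160 higher. With limma-voom 0 members were called. With 3 rats a group the smallest p of an exact permutation test is 0.1, so that test cannot pass for any single gene.

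**Figure D1:**
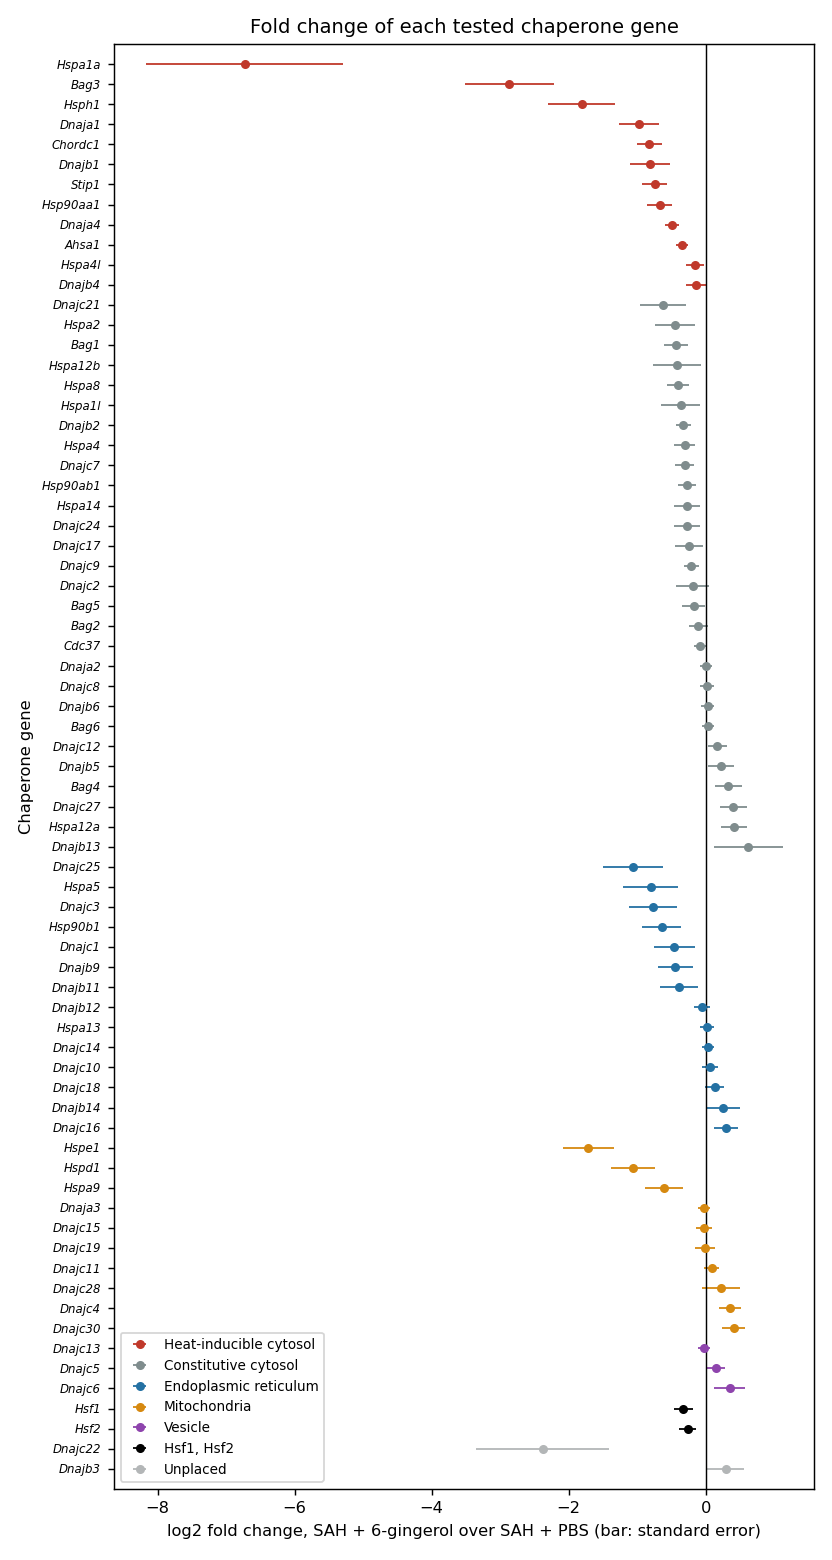
Log2 fold change (SAH + 6-gingerol over SAH + PBS, edgeR) of the 71 tested chaperone genes on the x axis, 1 gene a row, grouped by compartment, with bars of 1 standard error. Hspa1a lies far to the left at -6.73, all 12 heat-inducible genes lie left of 0, and most constitutive, ER and mitochondrial genes lie near 0.

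The families differed in how many members lay on the lower side. All 3 HSP90 genes (median -0.64, and -0.23 without SAH + PBS replicate 2), all 4 cochaperones (median -0.55), both chaperonin genes (median -1.38) and both heat shock factors (median -0.29) had negative log2 fold changes. Of the HSP70 genes 11 of 13 were negative, with a median of -0.40 that shrank to -0.18 without SAH + PBS replicate 2. The large HSP40 family was split, with 22 of 41 tested members negative and a median of -0.02. Within it the A type, closest to bacterial DnaJ, had 3 of 4 negative, the B type 6 of 11 and the diverse C type 13 of 26. The BAG genes had 4 of 6 negative, with a median of -0.14. Differences between families were not tested.

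Per gene length, and with each member counted by its own symbol, a constitutive HSP90 and a constitutive HSP70 of the cytosol ranked highest in both groups. Hsp90ab1, the constitutive cytosolic HSP90, averaged 649 FPKM (the deposited length-scaled unit) with 6-gingerol and 857 FPKM with PBS and ranked 1 of the 73 members in both. Hspa8, the constitutive HSP70 (HSC70), ranked 2 in both with 500 FPKM against 722 FPKM, and the inducible Hsp90aa1 ranked 3 with 283 FPKM against 491 FPKM. The order below these differed between the groups. The inducible HSP70 gene Hspa1a ranked 67 of 73 with 6-gingerol at 2.88 FPKM and 5 of 73 with PBS at 337 FPKM, Bag3 ranked 65 against 38, Hspe1 15 against 8 and Hsph1 8 against 4. Together the members held 0.952%, 0.964% and 0.955% of all counts in the 6-gingerol rats, and 1.51%, 1.81% and 1.06% in the PBS rats. The ranks and shares leave out gene models annotated as copies of members, with which members may share reads. LOC103692716, a model of HSP90-alpha, had 311 FPKM with 6-gingerol and 527 FPKM with PBS, more than Hsp90aa1. For Hspa8, the model LOC680121 had 122 FPKM against 175 FPKM. The ranks of the leading members could therefore change with copies added.

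**Figure D2:**
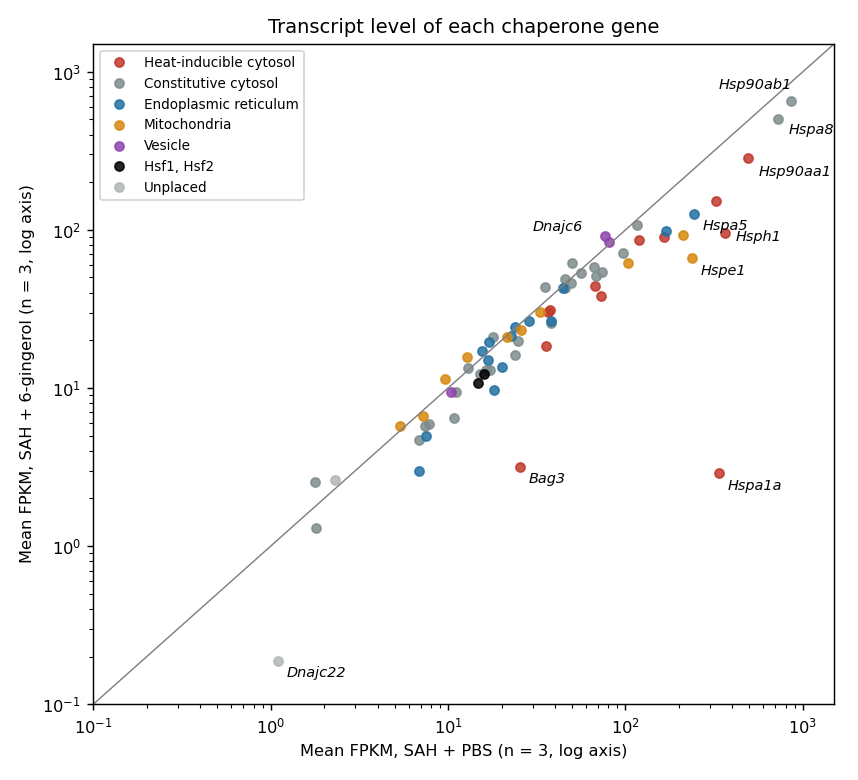
Mean FPKM of each tested chaperone gene (n = 3 rats a group, log axes), with SAH + 6-gingerol on the y axis and SAH + PBS on the x axis, coloured by compartment. The line marks equal levels. Hspa1a (2.88 FPKM against 337 FPKM) and Bag3 lie far below it, while Dnajc6 lies just above it.

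Hspa1a, the stress-inducible cytosolic HSP70, showed the widest gap of all members on the log2 scale, and its PBS rats lay far apart. It lies on the minus strand of chromosome 20 (2699712 to 2701815 of Rnor_6.0). It had 7.39, 4.86 and 6.72 CPM in the 6-gingerol rats, against 978, 1019 and 17.2 CPM in SAH + PBS replicates 1, 2 and 3. Every PBS rat lay above every 6-gingerol rat, but by very unequal amounts. Replicates 1 and 2 held 155 and 161 times the 6-gingerol mean and replicate 3 held 2.72 times. In edgeR its log2 fold change of -6.73 had a standard error of 1.44 and an adjusted p = 0.334. Without SAH + PBS replicate 3 it was -7.30 and passed (adjusted p = 0.00235 in edgeR), without replicate 1 it was -6.35 (adjusted p = 0.360) and without replicate 2 it was -6.30 (adjusted p = 0.141).

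The symbol Hspa1b, the twin gene of Hspa1a, does not occur in the table, but RefSeq gives that name to LOC108348108, a gene model on the same chromosome (4877324 to 4879779, minus strand). This model had 539, 412 and 486 counts in the 6-gingerol rats, against 78272, 82318 and 1387 counts in the PBS rats, the same pattern over rats as the 465, 313 and 402 counts against 66482, 70179 and 1135 counts of Hspa1a. Reads of such near-identical twins may be shared between them, and how the counting treated them is not given in the sources used here. Summing the pair left the gap as large (log2 fold change -6.70, adjusted p = 0.335 in edgeR).

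Hsph1, the HSP110 protein that works as exchange factor for HSP70 (chromosome 12, 6322668 to 6341902, minus strand), had 326, 329 and 371 CPM with 6-gingerol against 1416, 1752 and 421 CPM with PBS. The groups did not overlap, and SAH + PBS replicate 3 lay just above the 6-gingerol rats. Its log2 fold change was -1.81 with a standard error of 0.49 (adjusted p = 0.343 in edgeR), and without SAH + PBS replicate 3 it was -2.21 and passed (adjusted p = 0.0265). It did not pass without replicate 1 (-1.66, adjusted p = 0.360) or without replicate 2 (-1.43, adjusted p = 0.219). Hspa4l, its relative best known from testis and nervous tissue, showed no such gap, with 165, 141 and 155 CPM against 195, 153 and 165 CPM. The values of the groups overlapped (log2 fold change -0.15, standard error 0.13). The absence of a call for Hspa4l does not show that its level was equal.

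**Figure D3:**
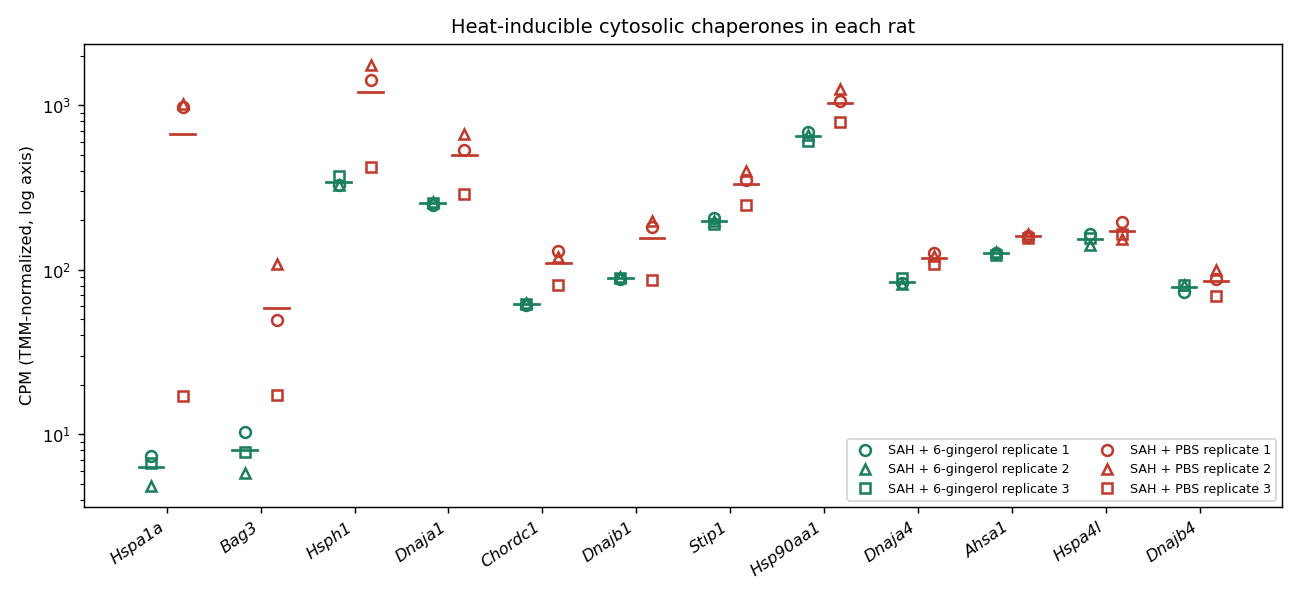
CPM (log axis) of the 12 heat-inducible cytosolic chaperones in each rat, with SAH + 6-gingerol left of SAH + PBS for each gene, a symbol shape per replicate number and a line at each group mean. For most genes the circle and triangle of SAH + PBS (replicates 1 and 2) lie high and the square (replicate 3) near the 6-gingerol rats, most widely for Hspa1a at 978, 1019 and 17.2 CPM.

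The inducible J-domain partners showed smaller gaps of the same kind. Dnaja1, a type A partner of HSP70, had 249, 258 and 255 CPM with 6-gingerol against 537, 665 and 290 CPM with PBS. The 6-gingerol rats lay within a narrow band and below each PBS rat (log2 fold change -0.97, standard error 0.29, adjusted p = 0.347 in edgeR). Dnajb1, the classical HSP40 of the heat shock response, had 87.6, 90.4 and 88.6 CPM against 182, 197 and 87.2 CPM. Here SAH + PBS replicate 3 lay just below all 6-gingerol rats, so the groups overlapped (log2 fold change -0.81, standard error 0.29, adjusted p = 0.349). Dnaja4 had the smallest p of all members although its gap was modest, with 83.0, 81.5 and 89.3 CPM against 126, 121 and 108 CPM. All 3 PBS rats were close to each other (log2 fold change -0.48, standard error 0.10, adjusted p = 0.334). Dnajb4, a further inducible type B member, overlapped between the groups, with 73.0, 80.3 and 81.1 CPM against 88.3, 99.9 and 69.7 CPM.

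The inducible HSP90 and 3 of the 4 cochaperones (Stip1, Chordc1 and Ahsa1) lay lower in all 6-gingerol rats than in any PBS rat. Hsp90aa1 had 685, 659 and 608 CPM with 6-gingerol against 1061, 1247 and 794 CPM with PBS (log2 fold change -0.67, standard error 0.18, adjusted p = 0.343 in edgeR). Stip1, the adaptor between HSP70 and HSP90, had 206, 198 and 190 CPM against 353, 398 and 246 CPM (log2 fold change -0.74, standard error 0.19, adjusted p = 0.338). Both showed PBS replicate 2 highest and replicate 3 lowest of the PBS rats. Chordc1, an HSP90-binding protein, had 61.1, 62.9 and 62.1 CPM against 129, 119 and 80.8 CPM (log2 fold change -0.82, standard error 0.18, adjusted p = 0.334). Ahsa1, the activator of the HSP90 ATPase, had 127, 128 and 124 CPM against 160, 165 and 155 CPM. Its gap was small but even, with little spread in either group (log2 fold change -0.35, standard error 0.09, adjusted p = 0.338). The constitutive cochaperone Cdc37 overlapped between the groups, with 180.5, 178 and 184 CPM against 180.5, 201 and 191 CPM (log2 fold change -0.08, adjusted p = 0.677).

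Among the BAG genes the gap was found in Bag3, the inducible member that couples HSP70 to autophagy of misfolded proteins (chromosome 1, 199941161 to 199965191, plus strand). It had 10.4, 5.84 and 7.81 CPM with 6-gingerol against 49.5, 108 and 17.3 CPM with PBS. The groups did not overlap, and the order of the PBS rats was 2, 1, 3. Its log2 fold change of -2.86 had a standard error of 0.65 (adjusted p = 0.336 in edgeR) and was -2.06 without SAH + PBS replicate 2. Bag1, which joins HSP70 to the proteasome, had 37.9, 35.2 and 33 CPM against 39.3, 59.2 and 44.5 CPM, a small gap without overlap (log2 fold change -0.43, adjusted p = 0.356). The remaining BAG genes are constitutive. Bag2, an inhibitor of the ubiquitin ligase CHIP, had 14.4, 17.6 and 14.0 CPM against 16.5, 16.2 and 16.8 CPM. Bag4, a silencer of death receptors, had 32.4, 29.4 and 27.7 CPM against 27.7, 17.2 and 26.2 CPM. Bag5, another exchange factor of HSP70, had 21.1, 20.6 and 23.7 CPM against 26.6, 27.7 and 19.5 CPM. Bag6, which guards tail-anchored and mislocalized proteins, had 205, 220 and 221 CPM against 211, 202 and 217 CPM. Of these 4 only Bag4 had groups without overlap, by a narrow margin, and their adjusted p in edgeR ran from 0.437 to 0.857. The sign for Bag6 (log2 fold change 0.04) turned with library totals alone as scaling, to -0.08.

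HSF1 acts through heat shock elements, inverted repeats of the letters GAA, and the promoter sequences are shown because the heat-inducible members, Hspa1a, Bag3 and Hsph1 among them, belong to its known targets. RefSeq windows of build GRCr8, 250 bases before to 50 after a gene's start, were at hand for 59 of the 73 members. A run of 3 units (TTCNNGAANNTTC or GAANNTTCNNGAA, both strands) occurred in 6 of the 59 windows (10.2%), against 0.798% of all 33469 windows. The 6 were Hspe1, Hspd1, Hsph1, Chordc1, Dnaja1 and Hspa8. A run of 2 units (TTCNNGAA or GAANNTTC, which each 3-unit run contains) occurred in 16 of the 59 (27.1%) against 15.9% of all windows, Bag3, Stip1 and Dnajb1 among them. Among the 10 windows of heat-inducible members 3 held a 3-unit run and 7 a 2-unit run. Those of Hspa1a, Dnaja4 and Ahsa1 held neither, which says only that these letters are not in those windows. The window of Hspa1a was taken at the start of a RefSeq model longer than the gene of the deposited table, so it may lie away from the main start. No window was at hand for the inducible Hsp90aa1 and Dnajb4. A match is a description of letters and not a shown binding site. Capitals below mark the 3-unit runs, all read 5′ to 3′ on the plus strand of GRCr8.
Hspe1, the bases before the start (chr9:64084077-64084326): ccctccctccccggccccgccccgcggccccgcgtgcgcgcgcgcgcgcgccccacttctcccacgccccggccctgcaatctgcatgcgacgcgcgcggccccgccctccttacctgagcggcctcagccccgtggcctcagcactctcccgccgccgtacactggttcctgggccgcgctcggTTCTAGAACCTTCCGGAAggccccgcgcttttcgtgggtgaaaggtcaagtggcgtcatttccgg
Hsph1, the bases before the start (chr12:10427118-10427367): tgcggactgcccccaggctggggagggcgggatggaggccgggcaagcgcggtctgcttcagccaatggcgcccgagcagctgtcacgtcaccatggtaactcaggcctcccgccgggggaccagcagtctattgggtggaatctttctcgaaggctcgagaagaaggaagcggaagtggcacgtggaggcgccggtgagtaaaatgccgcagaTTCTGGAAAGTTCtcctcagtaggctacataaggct
Hspa8, a stretch before the start (chr8:50080435-50080494): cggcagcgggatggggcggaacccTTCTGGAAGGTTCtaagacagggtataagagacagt
Chordc1, a site after the start (chr8:23650827-23650856): accgGAACGTTCGGGAAGATTCCTGAAgca
Dnaja1, a site after the start (chr5:60638404-60638433): ggccgggcgGAACTTTCCAGAAcgctcggt

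The capitals in Hspe1 are 2 overlapping runs that begin 65 and 60 bases before its start. The same letters lie in the Hspd1 window, since both genes share this stretch between them and are read in opposite directions. In Hsph1 the run begins 36 bases before the start and in Hspa8 55 bases before it, with a further run in Hspa8 that begins 213 bases before the start and is not shown. Chordc1 has 3 overlapping runs that begin 11, 16 and 21 bases into the gene, and Dnaja1 has 1 that begins 10 bases into it. Of the 6 genes with such a run, Hspa8 had the smallest gap in expression, as given below.

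The mitochondrial members were divided between the chaperonin and the rest. Hspe1 (HSP10), the lid of the chaperonin ring (chromosome 9, 61692154 to 61694599, plus strand of Rnor_6.0), had 19.9, 15.3 and 20.0 CPM with 6-gingerol against 59.7, 89.4 and 31.6 CPM with PBS. Hspd1 (HSP60), the ring itself (chromosome 9, 61680530 to 61690956, minus strand), had 226, 216 and 208 CPM against 524, 589 and 238 CPM. The pair, which sit head to head, shared the pattern over rats, with PBS replicate 2 highest, replicate 1 next and replicate 3 closest to the 6-gingerol rats, and neither overlapped. The log2 fold changes were -1.71 with a standard error of 0.37 for Hspe1 (adjusted p = 0.334 in edgeR) and -1.06 with a standard error of 0.32 for Hspd1 (adjusted p = 0.347). Hspd1 passed without SAH + PBS replicate 3 (-1.36, adjusted p = 0.0487 in edgeR). It did not pass without replicate 1 (-0.93, adjusted p = 0.372) or without replicate 2 (-0.81, adjusted p = 0.272). Hspa9, the mitochondrial HSP70 that pulls proteins through the import channel, had 184, 177 and 186 CPM against 296, 374 and 166 CPM. SAH + PBS replicate 3 lay below the 6-gingerol rats, so the groups overlapped (log2 fold change -0.61, adjusted p = 0.372). The 7 mitochondrial J-domain genes had log2 fold changes from -0.02 to 0.41. The highest, Dnajc30, which in human serves the turnover of complex I, had 19.0, 16.0 and 17.4 CPM against 15.4, 11.1 and 13 CPM (adjusted p = 0.358 in edgeR) and was named after its value was seen.

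Constitutive cytosolic members showed small differences. Hspa8 (chromosome 8, 44990014 to 44993179, plus strand) had 995, 1003 and 1036 CPM with 6-gingerol against 1329, 1603 and 1080 CPM with PBS (log2 fold change -0.40, standard error 0.17, adjusted p = 0.358 in edgeR). The groups did not overlap, and the order of the PBS rats was again 2, 1, 3. Hsp90ab1 had 1769, 1820 and 1815 CPM against 2176, 2426 and 1950 CPM, also without overlap (log2 fold change -0.28, standard error 0.13, adjusted p = 0.380). Over the 28 tested genes of this group, 18 had negative log2 fold changes, the median was -0.20, and 3 were lower and 0 higher at an unadjusted p under 0.05, a share near the 8.71% of all genes called lower. The median was -0.05 without SAH + PBS replicate 2 and -0.32 without replicate 3. The 3 were Bag1, Hspa8 and Dnajb2, the last a J-domain protein enriched in neurons with a log2 fold change of -0.32. Dnaja2, a type A partner of HSC70, had the log2 fold change nearest to 0 of all members (0.0022, 204, 204 and 207 CPM against 209, 201 and 204 CPM), and with Dnajb2 was named after its value was seen.

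In the ER the larger differences shrank when SAH + PBS replicate 2 was left out. Hspa5 (BiP), the HSP70 of the ER (chromosome 3, 13838304 to 13842762, plus strand), had 307, 352 and 354 CPM with 6-gingerol against 416, 1010 and 342 CPM with PBS. Replicate 2 alone was high, and replicate 3 lay among the 6-gingerol rats. Its log2 fold change of -0.80 (standard error 0.41, adjusted p = 0.393 in edgeR) shrank to -0.17 (adjusted p = 0.549) without SAH + PBS replicate 2. Hsp90b1 (GRP94), the HSP90 of the ER, had 318, 325 and 343 CPM against 390, 765 and 382 CPM, without overlap. Its log2 fold change was -0.64 (adjusted p = 0.368) and -0.23 (adjusted p = 0.198) without SAH + PBS replicate 2. The J-domain partners Dnajc3 (p58IPK), with 17.1, 17.7 and 17.8 CPM against 23.3, 47.6 and 18.5 CPM, and Dnajc25, with 3.80, 3.74 and 4.33 CPM against 6.68, 13.9 and 4.21 CPM, were named after their values were seen and had the same order of rats. Over the 14 ER genes, 8 had negative log2 fold changes with a median of -0.22, and replicate 2 was the highest PBS rat in 9. The median was -0.02 without SAH + PBS replicate 2, near the -0.01 of all genes, and -0.34 without replicate 3. At the study's limits 1 of the 14 (Dnajc25) was lower, beside 4.69% of all genes.

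The ER stress element (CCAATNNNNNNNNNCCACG or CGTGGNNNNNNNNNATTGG, both strands) is a sequence through which the unfolded protein response reaches many of its targets. It occurred in 3 of the 59 member windows (5.08%), Hspa5, Hsp90b1 and Dnajc3, all of the ER, against 0.0657% of all windows. It begins 43 bases before the start of Hspa5, 176 and 72 bases before that of Hsp90b1 and 133 bases before that of Dnajc3. The sequences are shown to set the promoters of the ER members beside those of the cytosolic and chaperonin members above, with the element in capitals. No 3-unit heat shock run was found in the 14 ER windows.
Hspa5, the bases before the start (chr3:38452766-38453015, plus strand of GRCr8): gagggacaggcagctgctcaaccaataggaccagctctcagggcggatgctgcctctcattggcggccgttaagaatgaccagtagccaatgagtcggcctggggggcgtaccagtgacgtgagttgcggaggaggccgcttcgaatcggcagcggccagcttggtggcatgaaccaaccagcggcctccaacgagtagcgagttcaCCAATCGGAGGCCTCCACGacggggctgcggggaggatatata
Hsp90b1, the bases before the start (chr7:23012294-23012543, minus strand of GRCr8): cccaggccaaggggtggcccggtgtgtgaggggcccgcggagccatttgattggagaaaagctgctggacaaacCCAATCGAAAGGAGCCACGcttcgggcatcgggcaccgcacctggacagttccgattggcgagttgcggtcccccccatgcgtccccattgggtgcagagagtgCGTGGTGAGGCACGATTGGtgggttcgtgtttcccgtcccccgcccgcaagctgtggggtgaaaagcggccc
Dnajc3, a stretch before the start (chr15:102432513-102432572, plus strand of GRCr8): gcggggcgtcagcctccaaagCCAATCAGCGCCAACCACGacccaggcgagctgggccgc

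The synaptic vesicle members lay in the other direction in SAH + PBS replicate 2. Dnajc6 (auxilin), which uncoats clathrin vesicles at synapses, had 485, 507 and 497 CPM with 6-gingerol against 432, 259 and 474 CPM with PBS. The groups did not overlap, and SAH + PBS replicate 2 was lowest (log2 fold change 0.35, standard error 0.23, adjusted p = 0.452 in edgeR). Dnajc5 (cysteine string protein), a chaperone of synaptic vesicles, had 92.4, 94.5 and 95.7 CPM against 86.9, 70.8 and 95.9 CPM, with overlap (log2 fold change 0.16, adjusted p = 0.546). The third tested member, Dnajc13 of endosomes, had a log2 fold change of -0.02. SAH + PBS replicate 2 also had the lowest sum of neuronal markers, 4145 CPM, and the part of neuronal content in these values was not tested.

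The factors themselves differed little. Hsf1 had 24.5, 29.5 and 27.5 CPM with 6-gingerol against 30.1, 38.1 and 33.8 CPM with PBS (log2 fold change -0.33, standard error 0.14, adjusted p = 0.362 in edgeR). Hsf2, a related factor that can pair with HSF1, had 34.3, 32.1 and 30.6 CPM against 39.1, 42.4 and 34.8 CPM (log2 fold change -0.26, standard error 0.12, adjusted p = 0.373). Neither gene's groups overlapped. HSF1 is switched on mainly at the protein level, which RNA counts do not measure.

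Read rat by rat, the compartments did not share 1 order. The median log2 ratio of the 12 heat-inducible genes to their 6-gingerol mean was 0.93, 0.97 and 0.30 in SAH + PBS replicates 1, 2 and 3. Replicate 3 was the lowest PBS rat in 11 of the 12, and the order 2, 1, 3 held in 9. The constitutive cytosolic genes had medians of 0.13, 0.30 and -0.0016 and the ER genes 0.03, 0.53 and 0.0024, so that the ER ratio stood out in replicate 2 alone. The 10 mitochondrial genes had medians near 0 in all 3 PBS rats, with Hspe1 and Hspd1 above in each and Hspa9 above in replicates 1 and 2. These ratios take the 6-gingerol mean as their base and were not tested between compartments.

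**Figure D4:**
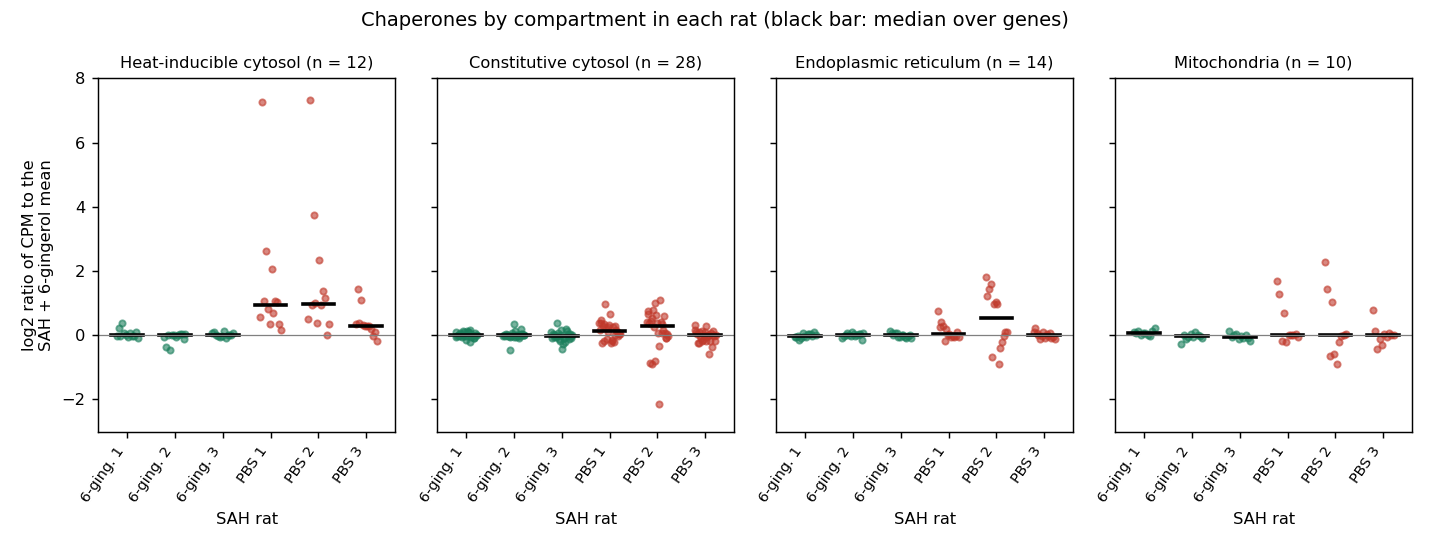
Log2 ratio of each rat's CPM to the SAH + 6-gingerol mean for the genes of 4 compartments (1 point a gene, black bar at the median), with the 6-gingerol rats left of the PBS rats. Heat-inducible medians lie at 0.93, 0.97 and 0.30 in SAH + PBS replicates 1, 2 and 3, whereas the ER median is high in replicate 2 (0.53).

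**Figure D5:**
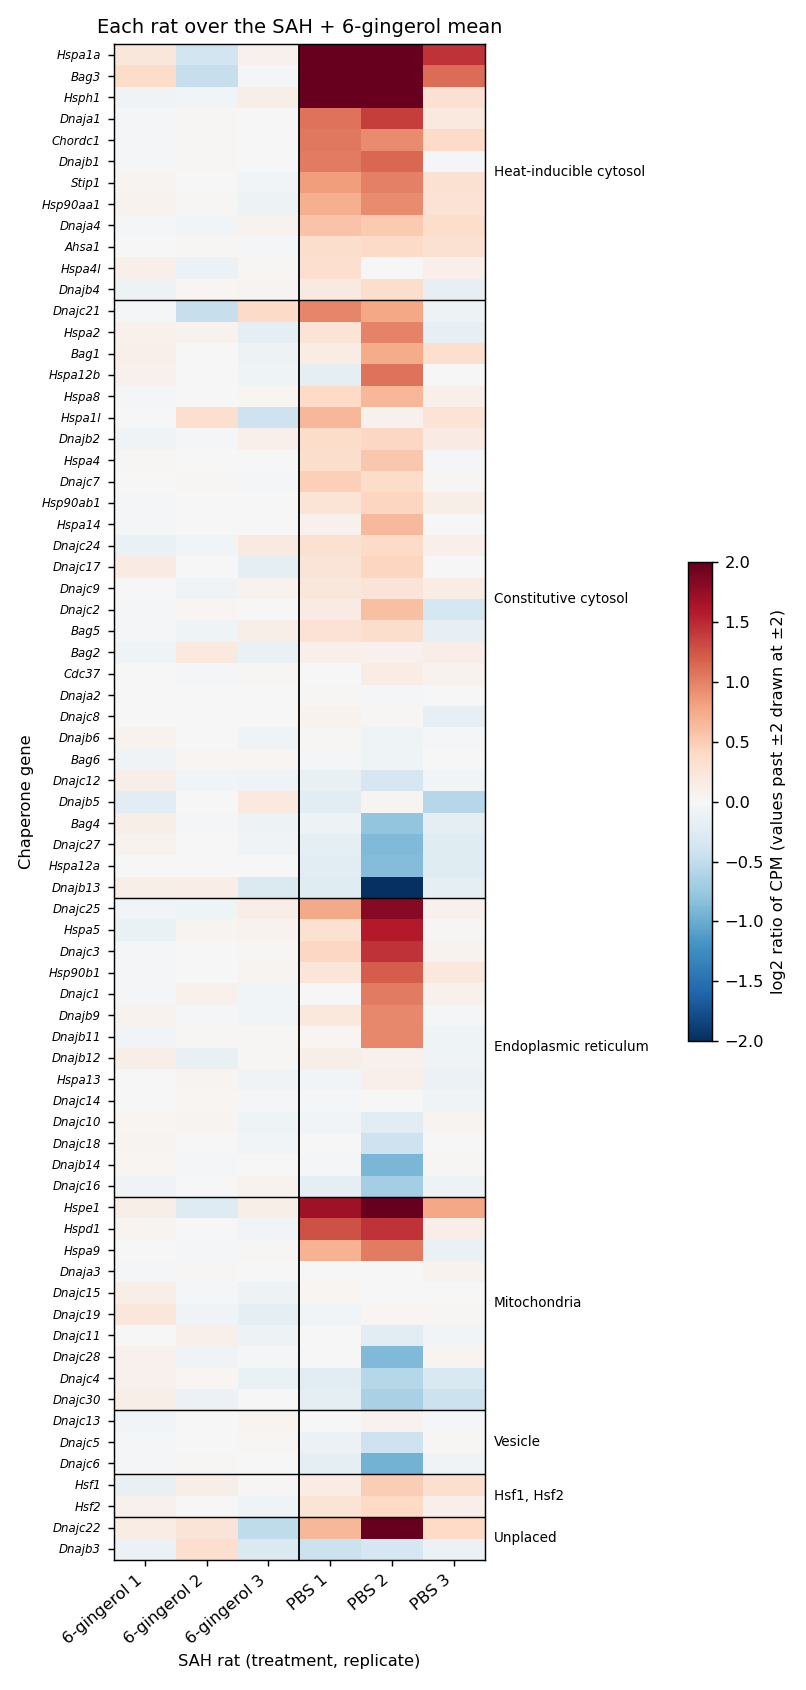
Log2 ratio of CPM to the SAH + 6-gingerol mean for each of the 71 tested chaperone genes (rows, grouped by compartment) in each rat (columns, 6-gingerol left of PBS), with values past 2 in size drawn at 2. The darkest red lies in SAH + PBS replicates 1 and 2 for Hspa1a, Bag3 and Hsph1, and in replicate 2 also for Hspe1 and Dnajc22. The upper ER rows and Dnajc6 stand out in replicate 2.

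The other genes of the folding machinery, 68 tested of 69 listed, gave a like picture with 54 negative log2 fold changes and a median of -0.24, or -0.14 with SAH + PBS replicate 2 left out. In edgeR 0 passed an adjusted p under 0.05, 16 were lower and 2 higher at an unadjusted p under 0.05 (8.71% and 5.22% of all genes), and 6 were lower and 0 higher at the study's limits (4.69% and 0.731% of all genes). The further HSF1 targets and regulators had 11 of 13 negative with a median of -0.77. Without SAH + PBS replicate 2 they had 10 of 13 negative with a median of -0.56. Hspb1 (HSP27), a small heat shock protein that holds unfolded clients, had 5.23, 4.63 and 5.15 CPM with 6-gingerol against 190, 634 and 61.6 CPM with PBS (log2 fold change -5.88, standard error 0.91, adjusted p = 0.327). Hmox1, the heme-degrading enzyme, had 5.91, 5.36 and 6.84 CPM against 92.5, 417 and 17.3 CPM (log2 fold change -4.86, standard error 1.13, adjusted p = 0.338). Both had the order 2, 1, 3 among PBS rats without overlap with the 6-gingerol rats, and in DESeq2 both passed.

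The cytosolic chaperonin and prefoldin list had 13 of 14 negative with a median of -0.28 (-0.15 without SAH + PBS replicate 2), led by Cct6a (log2 fold change -0.31, adjusted p = 0.356 in edgeR) and Cct4 (-0.52, adjusted p = 0.365), 2 subunits of the ring that folds actin and tubulin. The ER folding partners had 12 of 12 negative with a median of -0.54 (-0.15 without that rat), led by Sdf2l1, a BiP cofactor (-1.20, adjusted p = 0.347), and the disulfide isomerase Pdia4 (-0.86, adjusted p = 0.350), and SAH + PBS replicate 2 was the highest PBS rat in 11. Of the further HSP70 and HSP90 cochaperones 12 of 20 were negative with a median of -0.15 (-0.09 without that rat), led by the immunophilins Ppid (-0.44, adjusted p = 0.343) and Fkbp4 (-0.63, adjusted p = 0.347). The mitochondrial partners had 7 of 10 negative with a median of -0.05 (-0.13 without SAH + PBS replicate 3), led by the protease Lonp1 (-0.42, adjusted p = 0.349), while Trap1, the mitochondrial HSP90, had a positive log2 fold change (0.18, adjusted p = 0.375).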

How the data were processed

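RNA of brain tissue from 6 SAH rats was sequenced, 3 per group, each rat a separate sample. The authors deposited a table of raw counts and a table of FPKM for 22396 genes. The submitters' processing notes list StringTie 1.3.3b, HISAT2 2.1.0, the build Rnor_6.0 and limma 3.32.10 without roles, and the study's methods name STAR and DESeq2. No source used here gives the counter or its use of strand, so a gene's reads cannot be told from those of an antisense partner, and near-identical copies may share reads. The authors' FPKM equal the counts scaled by total and a fixed length per gene (deviation at most 0.00961% over 13995 genes) and served for levels only. Libraries were grouped by the treatment in their titles, although the column heads of the 6-gingerol libraries read Control.

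Counts were compared with edgeR 4.0.16 in R 4.3.3 (filterByExpr with a minimum count of 10 and a minimum total of 15, TMM, glmQLFit, glmQLFTest, no block), with Benjamini-Hochberg adjustment over 17096 genes. CPM are TMM-normalized, and a standard error is the log2 fold change over the root of the F statistic. The study's limits were taken as an unadjusted p under 0.05 with a change over 2-fold. The edgeR fit alone was tested on simulated data. Alternatives were other scalings, filters and units, limma-voom (limma 3.58.1), DESeq2 1.42.0, same symbols summed, each rat left out and a replicate block, and, chosen after seeing the data, 7 copies summed with their members. Promoter windows are RefSeq's of GRCr8 and its coordinates are kept apart from those of Rnor_6.0. Counting error is small at this depth for well-expressed genes, where the spread between rats limits the precision. It is not small for members of few reads such as Dnajc22, with 12 to 252 counts a rat.

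The members and lists were chosen with earlier results of these data known. Members given rat by rat are the inducible genes, the leading constitutive genes of each compartment, Hsf1, Hsf2, the BAG genes and the 10 of smallest p, and of each further list the 2 of smallest p. Any other member named was chosen after its values were seen.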

Additional observations from a re-analysis of the deposited data

How the results depend on the processing

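The members' count lower at an adjusted p under 0.05 was 0 with edgeR, 11 with DESeq2, and 0 to 3 with 1 rat left out. The 3 were Hspa1a, Hsph1 and Hspd1 without SAH + PBS replicate 3, where 0.0801% of all genes were called lower. The count lower at the study's limits was 7, and 4 with limma-voom (2.68% of all genes). With 1 rat left out it ran from 4 to 12 (4 without SAH + PBS replicate 2 or SAH + 6-gingerol replicate 3, 12 without SAH + PBS replicate 3). The share of all genes lower at these limits moved too, and was 2.43% without SAH + PBS replicate 2, 2.89% without SAH + 6-gingerol replicate 3 and 7.29% without SAH + PBS replicate 3, against 4.69% with all rats. Hspa1a, Bag3, Hsph1 and Hspe1 met those limits in each of the 18 alternatives run. Of the further folding genes, DESeq2 called 6 lower at an adjusted p under 0.05 (508 of 17034 genes in all). Leaving out 1 rat gave 0 to 1 in edgeR, the 1 without SAH + PBS replicate 2, where 0.357% of all genes were called lower. At the study's limits it gave 4 to 11 of them, 11 without SAH + PBS replicate 3. The cause of these moves was not tested. Bag6 turned to -0.0836 with library totals, to -0.0824 with log2(FPKM + 1) with or without a filter, and to -0.0837 with log2(FPKM + 0.1). Library totals alone moved the median of all genes to -0.15. All 12 inducible genes kept a negative sign in each alternative.

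With the replicate block 0 members passed the adjusted p, and 4 were lower at the study's limits (3.12% of all genes). Same-numbered rats did not deviate together (correlations of -0.0457, -0.000378 and -0.0140), so the numbers were not taken to pair the rats.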

Other observations

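Other gene models annotated as copies of members were read beside them. In all 7 the order of the PBS rats was 2, 1, 3, as in the members they belong to. LOC103692716, a model of HSP90-alpha (log2 fold change -0.64, adjusted p = 0.347 in edgeR), showed 886, 884 and 910 CPM with 6-gingerol against 1420, 1685 and 1060 CPM with PBS, more than Hsp90aa1 itself in each rat. Its smaller relative LOC680491 had 13.4, 14.8 and 14.9 CPM against 24.6, 28.7 and 18.0 CPM. The sum of Hsp90aa1 and both models gave -0.65 (adjusted p = 0.348). For Hspa8, 3 such models had log2 fold changes of -0.57 (LOC688655), -0.40 (LOC680121) and -0.40 (LOC688932), and the sum with Hspa8 had -0.42 (adjusted p = 0.355). Bag5l1 overlapped between the groups, and its sum with Bag5 gave -0.16 (adjusted p = 0.606).

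Some members lay farthest from the 6-gingerol rats in SAH + PBS replicate 2, and these were chosen after their values were seen. Dnajc22, a J-domain gene with few reads, had 0.318, 0.342 and 0.201 CPM with 6-gingerol against 0.456, 3.66 and 0.379 CPM with PBS, so that its log2 fold change of -2.38 (adjusted p = 0.358 in edgeR) was -0.54 without SAH + PBS replicate 2. Dnajb13, known from cilia and sperm tails, had 6.52, 6.54 and 4.91 CPM against 5.06, 1.35 and 5.26 CPM. Choroid plexus and ependyma markers were at 1131, 11.6 and 350 CPM in these PBS rats and at 19.4 to 27.1 CPM with 6-gingerol, lowest in the same rat as Dnajb13, while Dnajb13 in the PBS rats of high markers lay within the range of the 6-gingerol rats. Hspa12a, a distant HSP70 relative, had 411, 407 and 409 CPM against 349, 223 and 346 CPM, without overlap (log2 fold change 0.42, adjusted p = 0.368 in edgeR). Dnajc27 had 231, 218 and 209 CPM against 192, 119 and 185 CPM, also without overlap (0.41, adjusted p = 0.383). Without SAH + PBS replicate 2 their log2 fold changes were 0.24 (adjusted p = 0.169) and 0.22 (adjusted p = 0.255). Whether the neuronal content of SAH + PBS replicate 2 plays a part was not tested.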
